A study of Homo sapiens with 4 samples.

Results

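The ERK feedback genes described here are 10 genes listed for their place in the pathway: the dual specificity phosphatases DUSP4, DUSP5, DUSP6 and DUSP7, the Sprouty genes SPRY1, SPRY2 and SPRY4, the SPRED genes SPRED1 and SPRED2, and PHLDA1. The rule that lists them uses no measured value, but the list was written with earlier results of these data known. All 10 were among the 11650 genes with a value, and all 10 passed the filter that left 10271 genes for testing. They were measured by RNA sequencing in 2 libraries of resistant cells (Res) and 2 libraries of parental cells (Ctrl) of the established cell line 92.1, which was derived from a uveal melanoma, a pigment cell tumour of the eye. The labels give no agent, dose or duration for the resistance, and no allele or transgene for either group. They do not say whether the resistant cells are 1 clone or a pool, or whether replicates are separate cultures. Each p-value below thus rests only on how far these libraries differ within a group, for the gene itself and in part over all tested genes. That difference may be technical. The cell line field differs from sample to sample, while all 4 titles name 92.1, and the titles were followed.

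ERK is the last kinase of the RAS, RAF and MEK cascade, and it switches on genes whose products damp the same cascade. In that feedback loop the dual specificity phosphatases remove the activating phosphates from ERK, while Sprouty and SPRED proteins act upstream, between growth factor receptors and RAF. Because ERK activity drives their transcription, the messenger RNAs of these genes are widely read as a gauge of ERK output in tumour cells. Uveal melanomas usually carry an activating mutation in a G alpha q protein, which reaches the cascade through protein kinase C and the RAS exchange factor RASGRP3.

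The 10 genes did not move as a block. Between resistant and parental cells DUSP6 and SPRY2 were higher in both resistant libraries, PHLDA1, SPRY1, SPRY4 and DUSP4 were lower in both, and DUSP5, DUSP7, SPRED1 and SPRED2 overlapped. Levels are FPKM, that is, a gene's mapped fragments divided by transcript length and by the library's mapped fragments, as deposited. Differences are log2 fold changes, Res minus Ctrl, of log2(FPKM + 1), a scale that understates the changes of low genes. They were tested in limma with Benjamini-Hochberg adjustment over all 10271 genes. No member passed an adjusted p of 0.05, which 0.0584% of all tested genes did (0.0487% higher in Res and 0.00974% lower). At an unadjusted limma p under 0.05 there were 3 members of 10, against a background of 16.2% of all tested genes. Of these, DUSP6 was higher in Res (background 6.06%) and PHLDA1 and SPRY1 were lower (background 10.2%). The groups did not overlap for 6 of 10 members, against a background of 51%, with 2 higher in Res (background 19.1%) and 4 lower (background 31.8%). With 2 libraries in each group the smallest p that an exact permutation test can give is 0.333, so that test could separate no single gene.

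**Figure D1:**
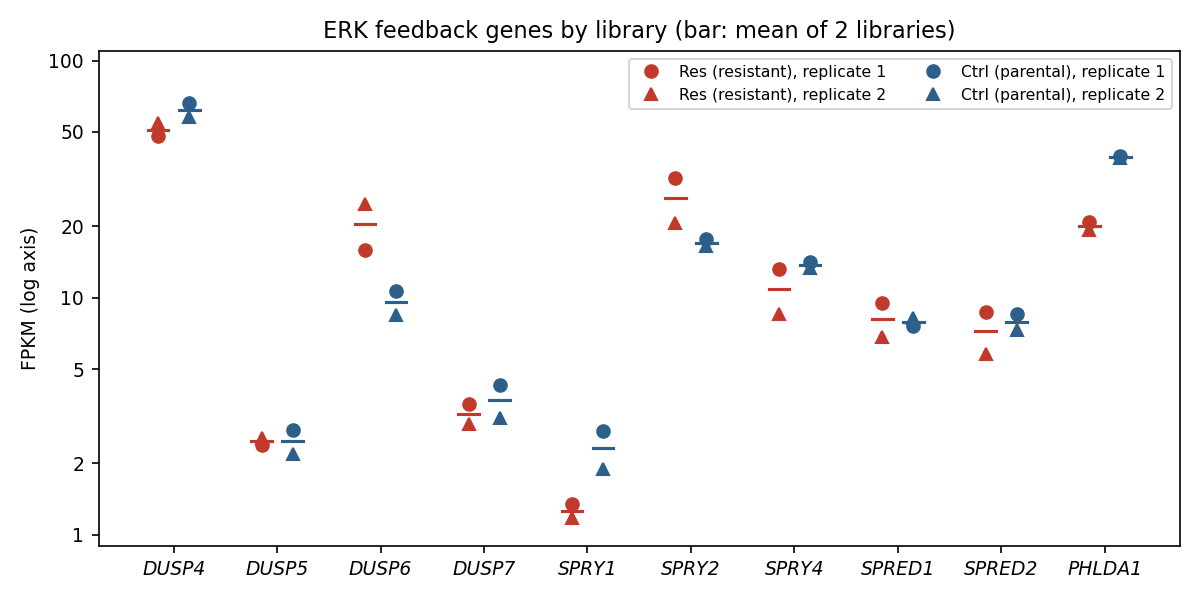
FPKM of each ERK feedback gene on a log axis, with red points for the 2 Res libraries, blue points for the 2 Ctrl libraries and a bar at each mean. DUSP6 lies at 15.9 and 24.9 FPKM in Res, above both Ctrl libraries, and PHLDA1 lies at 20.8 and 19.3 FPKM in Res, below both.

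DUSP6 encodes a cytoplasmic phosphatase that is selective for ERK. It stood at 15.9 and 24.9 FPKM in the Res libraries, against 10.7 and 8.46 FPKM in the Ctrl libraries. Both Res values lay above both Ctrl values, and the Res libraries were farther from each other than the Ctrl libraries. Its mean was 20.4 ± 6.34 FPKM in Res and 9.56 ± 1.55 FPKM in Ctrl (SD, n = 2 each), a ratio of means of 2.14. The log2 fold change was 1.00 ± 0.26 (SE), with a 95% interval of 0.33 to 1.67 and a limma adjusted p of 0.205. Left with 1 resistant library, it was 1.30 without Res replicate 1 and 0.69 without Res replicate 2. In a bulk sample, a change in the share of cells that express a gene and a change in its RNA per cell cannot be told apart. The identifier is ENSG00000139318.7_2, and the gene lies on the minus strand of chromosome 12 from 89347232 to 89353271 (GENCODE release 29, GRCh38). An annotated antisense gene, AC024909.2, overlaps its exons. The libraries were stranded per the labels' protocols, but the sources used here do not state whether counting used strand. Reads of that antisense gene could thus be part of the DUSP6 level.

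DUSP7 encodes the other cytoplasmic ERK phosphatase of the set. It stood at 3.55 and 2.93 FPKM in Res, against 4.28 and 3.12 FPKM in Ctrl. The groups overlapped (log2 fold change -0.14, 95% interval -0.68 to 0.40, limma adjusted p = 0.775). Its close relative DUSP6 therefore outweighed it by a wider margin in the resistant libraries: DUSP6 over DUSP7 was 4.48 and 8.50 in Res, against 2.49 and 2.71 in Ctrl.

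DUSP4, a nuclear phosphatase of ERK and of the stress kinases, was the most abundant member in every library. It stood at 47.9 and 54.3 FPKM in Res, against 66.3 and 57.6 FPKM in Ctrl. Both Res values were below both Ctrl values, by a gap smaller than the distance between replicates of either group. The log2 fold change was -0.27 ± 0.16 (SE, 95% interval -0.69 to 0.14, limma adjusted p = 0.456), and it ranged from -0.37 to -0.17 with 1 library left out (-0.17 without Ctrl replicate 1). DUSP4 over DUSP6 was 3.01 and 2.18 in Res, against 6.22 and 6.81 in Ctrl, so the nuclear phosphatase still had the higher level, by a smaller factor. Such a ratio within a library does not depend on how libraries are scaled.

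DUSP5, a nuclear phosphatase selective for ERK, stood at 2.39 and 2.56 FPKM in Res, against 2.78 and 2.18 FPKM in Ctrl. The Res values lay inside the Ctrl range, with an interval for the log2 fold change of -0.46 to 0.47. The nuclear pair DUSP4 and DUSP5 summed to 50.3 and 56.9 FPKM in Res, against 69.1 and 59.8 FPKM in Ctrl. The cytoplasmic pair DUSP6 and DUSP7 summed to 19.5 and 27.8 FPKM in Res, against 14.9 and 11.6 FPKM in Ctrl. The sums of the pairs thus lay in opposite directions, each set by its more abundant gene.

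**Figure D2:**
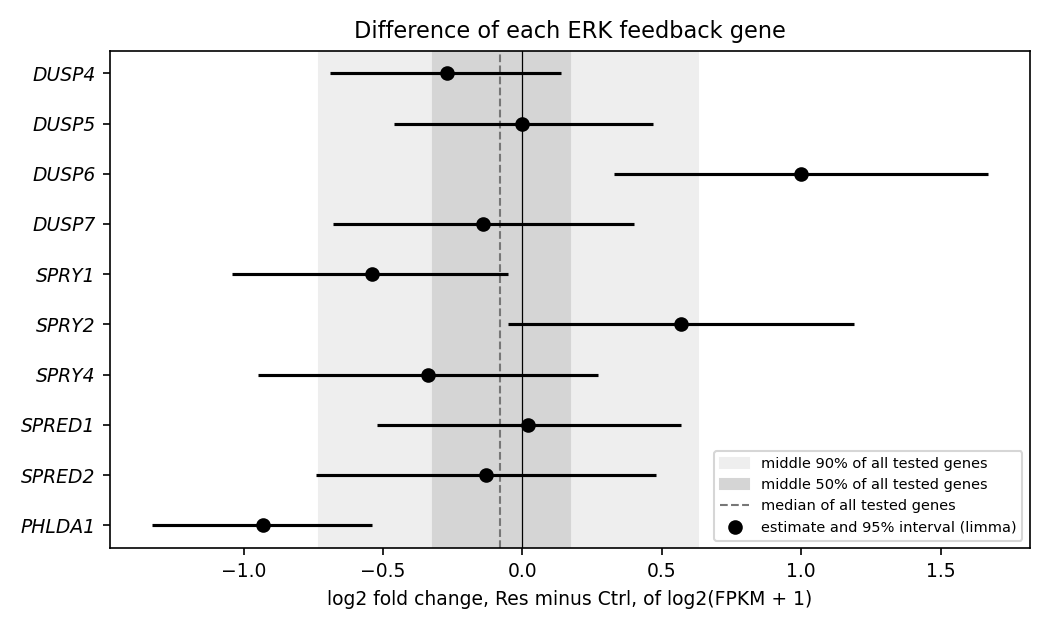
Log2 fold change of each ERK feedback gene, Res minus Ctrl, with its 95% interval from limma, over bands for the middle 90% and the middle 50% of all 10271 tested genes and a dashed line at their median of -0.08. The intervals of DUSP6 (0.33 to 1.67), PHLDA1 (-1.33 to -0.54) and SPRY1 (-1.04 to -0.05) leave out 0, before any adjustment for the number of genes and with all 4 libraries.

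Sprouty proteins are inducible inhibitors of receptor tyrosine kinase signalling, and SPRY2 binds the adaptor GRB2 and the ubiquitin ligase CBL. SPRY2 stood at 32.0 and 20.7 FPKM in Res, against 17.6 and 16.5 FPKM in Ctrl. Both Res values were above both Ctrl values, with Res replicate 1 far above the rest. The log2 fold change was 0.57 ± 0.24 (SE, 95% interval -0.05 to 1.19, limma adjusted p = 0.332). It was 0.27 without Res replicate 1 and 0.87 without Res replicate 2. The gene (ENSG00000136158.11_3) lies on the minus strand of chromosome 13 from 80335976 to 80340951.

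SPRY4, an inhibitor acting upstream of RAF, stood at 13.2 and 8.56 FPKM in Res, against 14.1 and 13.3 FPKM in Ctrl. Res replicate 2 was well below the other 3 libraries, and Res replicate 1 was close to the Ctrl libraries. The log2 fold change was -0.34 ± 0.24 (SE, 95% interval -0.95 to 0.27, limma adjusted p = 0.518), and it was -0.62 without Res replicate 1 and -0.06 without Res replicate 2.

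SPRY2 and SPRY4 shared the difference between the resistant libraries: each was higher in Res replicate 1 than in Res replicate 2, by 0.61 for SPRY2 and 0.57 for SPRY4 on the log2(FPKM + 1) scale. Their ratio was therefore alike in both libraries of a group. SPRY2 over SPRY4 was 2.43 and 2.42 in Res, against 1.24 and 1.23 in Ctrl. This pair was singled out after its values were seen. Of the 45 ratios between members, 31 did not overlap between groups, beside 51.3% of the ratios between any pair of tested genes above 0 in every library. The 45 ratios share genes and are not independent. Those that involve DUSP6, PHLDA1, SPRY1 or SPRY2 did not overlap for 8 of 9 each, the exceptions being DUSP6 over SPRY2 and SPRY1 over PHLDA1.

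SPRY1, a Sprouty gene of the same kind, was the least abundant member. It stood at 1.34 and 1.18 FPKM in Res, against 2.74 and 1.90 FPKM in Ctrl. Both Res values were below both Ctrl values. The log2 fold change was -0.54 ± 0.20 (SE, 95% interval -1.04 to -0.05, limma adjusted p = 0.286). It was -0.36 without Ctrl replicate 1 and -0.73 without Ctrl replicate 2. With 1 library left out, its unadjusted limma p was under 0.05 only without Ctrl replicate 2. SPRY1 over SPRY2 was 0.0420 and 0.0569 in Res, against 0.155 and 0.116 in Ctrl, so these relatives lay in opposite directions. The gene (ENSG00000164056.10_2) lies on the plus strand of chromosome 4 from 123396795 to 123403760. As a sum, the 3 Sprouty genes stood at 46.5 and 30.4 FPKM in Res, against 34.5 and 31.7 FPKM in Ctrl, and the groups overlapped.

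SPRY2 and SPRY1 are related genes whose estimates lay in opposite directions, although neither passed the threshold. For this reason the 250 bases before the most upstream start listed for each are shown. They are from RefSeq on GRCh38.p14, 5′ to 3′ on the gene's own strand. The SPRY2 stretch is chr13:80341127-80341376 on the minus strand and the SPRY1 stretch is chr4:123396545-123396794 on the plus strand, and neither holds an annotated exon of GENCODE release 29. Capitals mark GGAA on either strand (TTCC on the strand shown), the core letters that ETS factors such as ETV4 and ETV5 recognise.
SPRY2: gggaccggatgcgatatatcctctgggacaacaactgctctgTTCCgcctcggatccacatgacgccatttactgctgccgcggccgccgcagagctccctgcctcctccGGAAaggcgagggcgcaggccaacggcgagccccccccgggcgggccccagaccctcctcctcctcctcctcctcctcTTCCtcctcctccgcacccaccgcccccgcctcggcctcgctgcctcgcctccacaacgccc
SPRY1: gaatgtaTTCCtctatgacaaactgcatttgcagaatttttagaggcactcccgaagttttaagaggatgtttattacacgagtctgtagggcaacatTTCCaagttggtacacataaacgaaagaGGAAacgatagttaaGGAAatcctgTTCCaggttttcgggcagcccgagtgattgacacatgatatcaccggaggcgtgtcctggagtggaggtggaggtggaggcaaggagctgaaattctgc
The SPRY2 stretch has 3 such cores and 70.4% G and C, and the SPRY1 stretch has 5 cores and 45.6% G and C. The longer ETS form CCGGAA occurs in the SPRY2 stretch, where it contains 1 of the marked cores, and not in the SPRY1 stretch. This contrast rests on the start chosen: the window at the other SPRY1 start holds 1 CCGGAA, and the windows at the other 2 SPRY2 starts hold none.

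RefSeq windows of 300 bases (250 before and 50 after a start) were searched for 8 members. There were 12 windows in all because SPRY1, SPRY2 and SPRED2 have several starts. GGAA was present on either strand in 11 of the 12 windows, and in 95.5% of all 35116 windows of that length. CCGGAA was present in 3 of 12 (17.2% of all windows), TGANTCA, the AP-1 motif, in 1 of 12 (7.71% of all) and TGACGTCA, the cyclic AMP response element, in 0 of 12 (1.85% of all). These 12 windows held from 0 GGAA cores (DUSP7) to 6 (DUSP6 and SPRED2), beside a median of 3 over all windows. Members whose groups overlapped lay at both ends. The matches describe letters in these windows, not occupied sites. Member windows on chromosome 8, where DUSP4 lies, were left out of the search, and none was found for DUSP5.

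SPRED1 and SPRED2 encode Sprouty-related proteins of the inner membrane face, and SPRED1 brings the RAS inactivator neurofibromin to the membrane. SPRED1 stood at 9.46 and 6.80 FPKM in Res, against 7.62 and 8.18 FPKM in Ctrl. The Res values lay on either side of the Ctrl values (log2 fold change 0.02, 95% interval -0.52 to 0.57). SPRED2 stood at 8.69 and 5.78 FPKM in Res, against 8.54 and 7.28 FPKM in Ctrl. The Res values again enclosed the Ctrl values (log2 fold change -0.13, 95% interval -0.74 to 0.48). Limma adjusted p-values were 0.968 for SPRED1 and 0.812 for SPRED2. These intervals leave room for differences of either sign in both genes.

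PHLDA1 encodes a pleckstrin homology-like protein, and its transcript is often counted among readouts of ERK output. It stood at 20.8 and 19.3 FPKM in Res, against 39.7 and 38.8 FPKM in Ctrl. Replicates lay close together and the groups were far apart, with a mean of 20.1 ± 1.07 FPKM in Res and 39.3 ± 0.668 FPKM in Ctrl (SD, n = 2 each), a ratio of means of 0.512. The log2 fold change was -0.93 ± 0.16 (SE, 95% interval -1.33 to -0.54). Its limma adjusted p of 0.122 was the lowest of the members, at an unadjusted p of 0.00149. Over the 13 alternatives the log2 fold change stayed between -1.01 and -0.83, with adjusted p from 0.0586 to 0.573. PHLDA1 (ENSG00000139289.13_2) lies on the minus strand of chromosome 12 from 76025447 to 76033932, and the annotated antisense genes AC011611.3 and AC011611.4 overlap its exons, so its level carries the same reservation about strand as that of DUSP6.

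Levels were compared between members because FPKM is scaled to length. The order also depends on the annotation used, which was not settled, and on the reservation about strand for DUSP6 and PHLDA1. In the Res libraries the order by mean was DUSP4, SPRY2, DUSP6, PHLDA1, SPRY4, SPRED1, SPRED2, DUSP7, DUSP5 and SPRY1. In the Ctrl libraries it was DUSP4, PHLDA1, SPRY2, SPRY4, DUSP6, SPRED2, SPRED1, DUSP7, DUSP5 and SPRY1. In Res, the ranges of neighbours overlapped for SPRY2 with DUSP6, DUSP6 with PHLDA1, SPRY4 with SPRED1, and SPRED1 with SPRED2. In Ctrl they overlapped for DUSP6 with SPRED2, SPRED2 with SPRED1, and DUSP5 with SPRY1. PHLDA1 was thus second and apart from its neighbours in Ctrl, and in Res it lay within the range of DUSP6.

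The summed level of the 10 genes was 155 and 147 FPKM in Res, against 174 and 157 FPKM in Ctrl. PHLDA1 made up 13.4% and 13.1% of that sum in Res, against 22.8% and 24.6% in Ctrl. DUSP6 made up 10.3% and 16.9% in Res, against 6.11% and 5.38% in Ctrl, and SPRY2 20.6% and 14.1% in Res, against 10.1% and 10.5% in Ctrl. The share of DUSP4 was 30.8% and 36.9% in Res, against 38.0% and 36.6% in Ctrl, and overlapped.

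**Figure D3:**
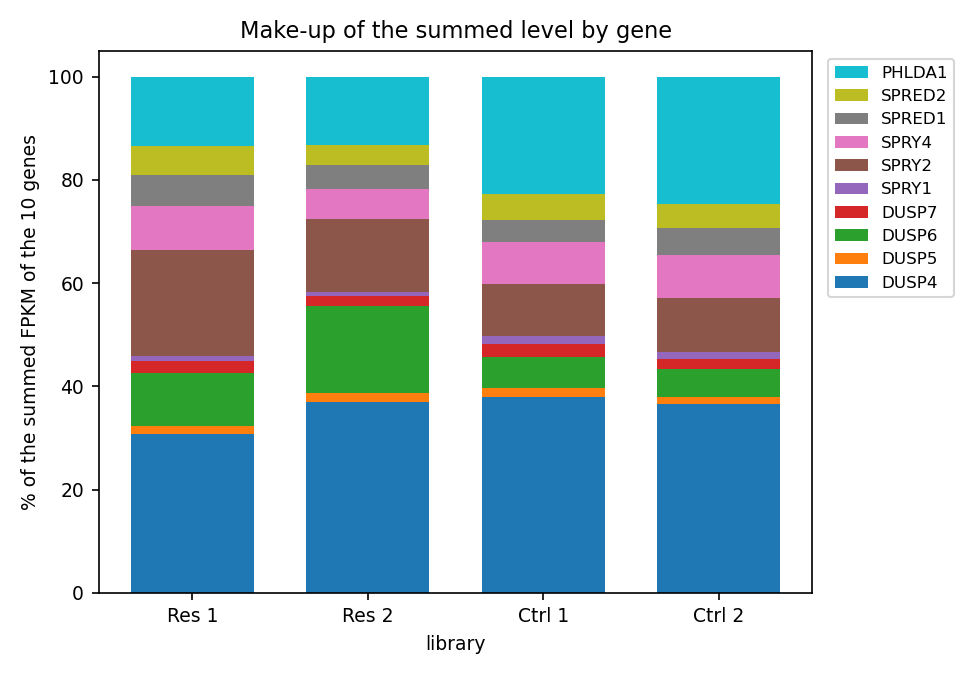
Share of the summed FPKM of the 10 ERK feedback genes that each gene made up, in percent, with 1 stacked bar per library (Res libraries left, Ctrl libraries right). The PHLDA1 segment is 13.4% and 13.1% in Res against 22.8% and 24.6% in Ctrl, while the DUSP6 and SPRY2 segments are larger in both Res libraries.

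The median log2 fold change of the 10 members was -0.14, beside -0.08 over all tested genes, with 4 members above 0 and 6 below. The spread between replicates was larger in Res than in Ctrl. The pooled SD of the members on the log2(FPKM + 1) scale was 0.284 in Res and 0.161 in Ctrl, beside 0.378 in Res and 0.266 in Ctrl over all tested genes. Res replicate 1 was above Res replicate 2 for 7 of 10 members, which is near the background of 6789 of 10271 tested genes. DUSP4, DUSP5 and DUSP6 were the other way round. DUSP6 had a difference of -0.61 there and SPRY2 one of 0.61, so the resistant library with more DUSP6 had less SPRY2. In Ctrl, replicate 1 was above replicate 2 for 9 of 10 members, beside 5673 of 10271 tested genes. The median Ctrl difference, replicate 1 minus replicate 2, was 0.2 for the members and 0.02 for all tested genes.

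**Figure D4:**
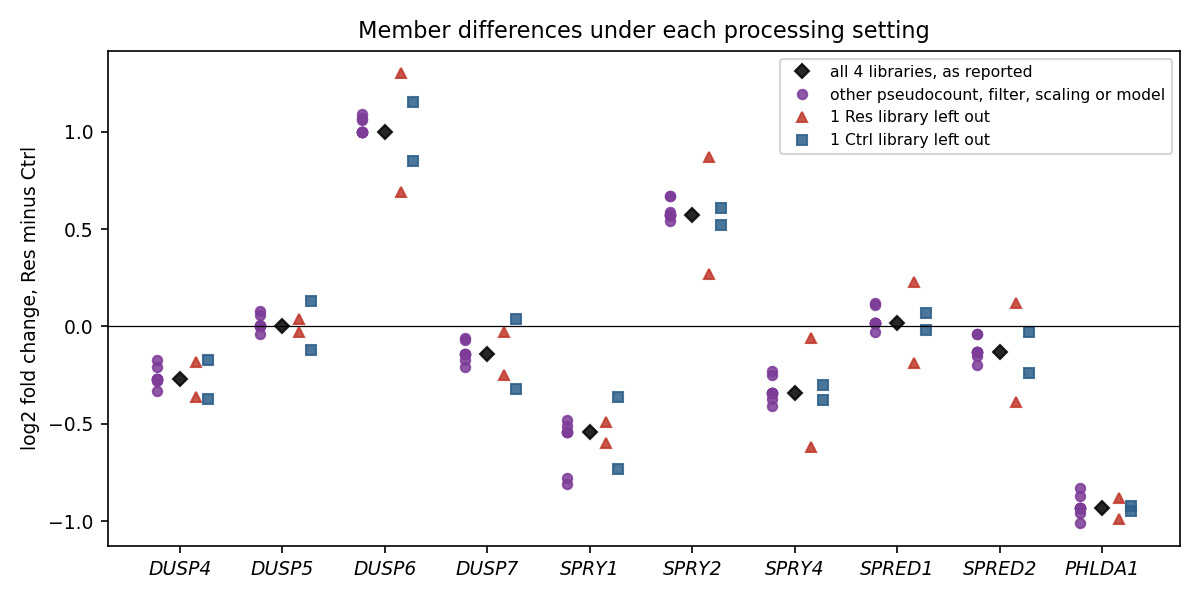
Log2 fold change of each ERK feedback gene with all 4 libraries (black diamonds), with another pseudocount, filter, scaling or model (purple circles), and with 1 Res (red triangles) or 1 Ctrl (blue squares) library left out. PHLDA1 stays between -1.01 and -0.83, while DUSP6 spreads from 0.69 to 1.30 and SPRY4 from -0.62 to -0.06 with the Res library left out.

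Close relatives outside the set were read from the same fit. PHLDA2, a growth-restraining relative of PHLDA1, stood at 23.5 and 22.7 FPKM in Res, against 38.8 and 33.9 FPKM in Ctrl (log2 fold change -0.63 ± 0.16 SE, limma adjusted p = 0.198). PHLDA3, a p53 target that restrains AKT, stood at 8.93 and 9.88 FPKM in Res, against 3.41 and 3.46 FPKM in Ctrl (1.23 ± 0.18 SE, limma adjusted p = 0.0995). PHLDA1 and PHLDA2 thus lay lower in both resistant libraries and PHLDA3 higher in both. SPRY3 and SPRED3 had no value.

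Of 19 other dual specificity phosphatase genes, 15 were tested. None passed over all genes, and 1, DUSP18, had an unadjusted limma p under 0.05 (adjusted p = 0.23), beside a background of 16.2%. Their median log2 fold change was 0.04. The lowest were DUSP3, which acts on ERK and JNK, and DUSP16, which prefers JNK. DUSP3 stood at 17.3 and 39.4 FPKM in Res, against 43.8 and 41.0 FPKM in Ctrl, a gap carried by Res replicate 1. DUSP16 stood at 7.23 and 4.79 FPKM in Res, against 8.74 and 9.33 FPKM in Ctrl. The highest were DUSP18, at 1.54 and 1.85 FPKM in Res against 0.865 and 0.837 FPKM in Ctrl, and DUSP23, at 32.3 and 26.2 FPKM in Res against 21.3 and 23.9 FPKM in Ctrl. DUSP18 lay under 1 FPKM in both Ctrl libraries and so passed the filter through its Res level.

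Of the kinase cascade that the members restrain, 21 of 24 listed genes were tested, with 0 past an unadjusted limma p of 0.05 in either direction (background 16.2%) and a median log2 fold change of -0.02. The lowest were RPS6KA3, an ERK-activated kinase, at 39.8 and 23.4 FPKM in Res against 47.9 and 47.8 FPKM in Ctrl, and MRAS, a RAS relative, at 6.37 and 4.48 FPKM in Res against 7.63 and 6.31 FPKM in Ctrl. The highest were RPS6KA4, a nuclear kinase downstream of ERK and p38, at 3.92 and 4.83 FPKM in Res against 2.50 and 3.76 FPKM in Ctrl, and RRAS2, at 8.28 and 8.82 FPKM in Res against 6.92 and 6.06 FPKM in Ctrl. All 4 had a limma adjusted p between 0.334 and 0.521.

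Of 29 listed genes that switch RAS on or off or bind the members, 25 were tested, with a median log2 fold change of -0.02. None passed over all genes. At an unadjusted limma p under 0.05 there were 2 above 0 and 2 below 0, which together is near the background of 16.2%. PEBP1, an inhibitor of RAF, stood at 130 and 156 FPKM in Res, against 253 and 220 FPKM in Ctrl (-0.73 ± 0.16 SE, limma adjusted p = 0.165). SHOC2, a scaffold of the phosphatase that activates RAF, stood at 19.7 and 22.9 FPKM in Res, against 12.2 and 13.6 FPKM in Ctrl (0.68 ± 0.18 SE, limma adjusted p = 0.199). The remaining extremes were the SPRY2 partners GRB2 and CBL, whose groups overlapped. GRB2 stood at 15.9 and 5.20 FPKM in Res, against 20.4 and 11.9 FPKM in Ctrl. CBL stood at 2.36 and 1.76 FPKM in Res, against 1.91 and 0.0696 FPKM in Ctrl, where 1 parental library sets the difference.

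Other transcriptional targets of ERK also lay on both sides of 0. Of 31 listed, 23 were tested, and none passed the threshold over all genes. Their median log2 fold change was -0.04. At an unadjusted limma p under 0.05 there were 6 above 0 (6.06% of all tested genes) and 3 below 0 (10.2% of all). FOSL1, 1 of the 6 and named after its values were seen, stood at 1.35 and 1.57 FPKM in Res, against 0.71 and 0.625 FPKM in Ctrl, so it passed the filter through its Res level. CCN1, a matricellular protein that is also a target of YAP, stood at 44.6 and 30.5 FPKM in Res, against 5.68 and 5.52 FPKM in Ctrl (2.52 ± 0.23 SE, limma adjusted p = 0.0617). CXCL8, a chemokine, stood at 5.37 and 5.71 FPKM in Res, against 0.834 and 1.42 FPKM in Ctrl (1.63 ± 0.21 SE, limma adjusted p = 0.0788). At the other end, the transcription factor MYC stood at 3.06 and 4.67 FPKM in Res, against 8.23 and 7.85 FPKM in Ctrl (-0.91 ± 0.23 SE, limma adjusted p = 0.192). The ETS factor ETV4 stood at 10.03 and 9.13 FPKM in Res, against 18.7 and 15.8 FPKM in Ctrl (-0.78 ± 0.18 SE, limma adjusted p = 0.175). ETV4 and PHLDA1, both common readouts of ERK output, thus lay lower in both resistant libraries while DUSP6, another such readout, lay higher in both. The targets ETV5, CCND1, EPHA2, IER2, HMGA2 and GDF15 are named after their values were seen. ETV5 lay lower in both (log2 fold change -0.49), CCND1 lay higher in both (0.1), and EPHA2 overlapped (-0.23). IER2 (1.09), HMGA2 (1.31) and GDF15 (0.89), the rest of the 6 above 0, lay higher in both.

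**Figure D5:**
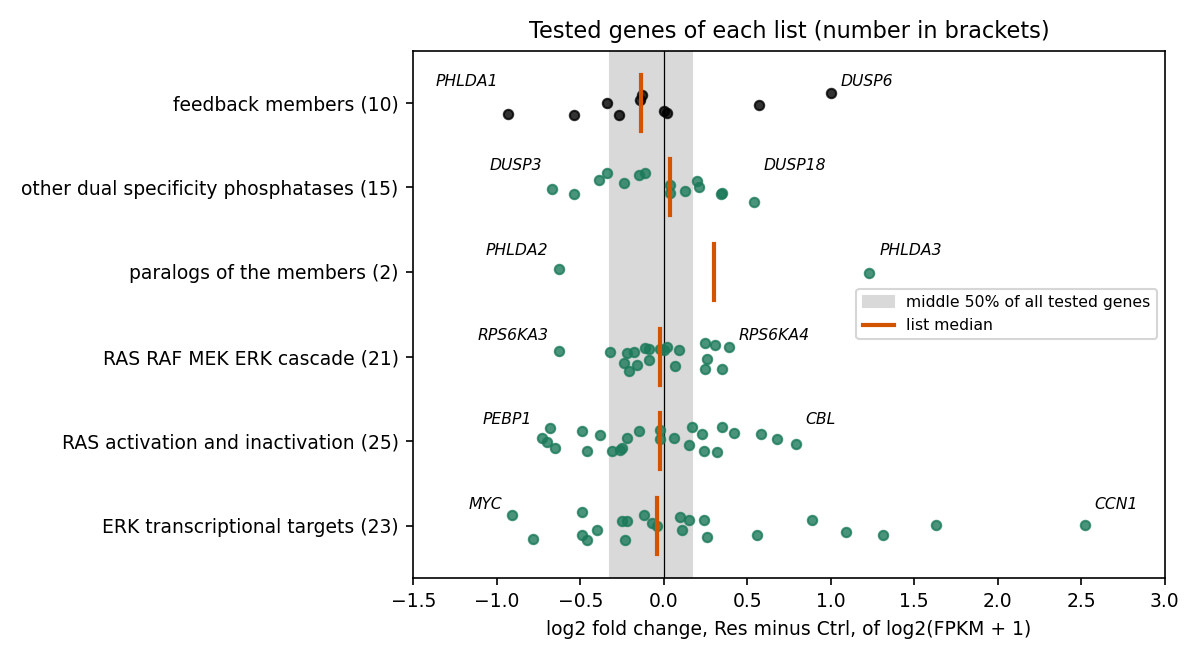
Log2 fold change, Res minus Ctrl, of every tested gene of 6 lists (points, jittered vertically), with each list's median as an orange bar and a grey band for the middle 50% of all tested genes. List medians lie between -0.14 and 0.30, and each of the 6 lists reaches past the grey band on both sides.

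All 6 defining pigment cell markers had values. Their summed level was 2990 and 2260 FPKM in Res and 2580 and 2300 FPKM in Ctrl, and most of it was TYRP1, a melanin enzyme, at 2143 and 1514 FPKM in Res and 1490 and 1484 FPKM in Ctrl. TYRP1 was higher in both Res libraries (limma adjusted p = 0.493), and the groups overlapped for PMEL, MLANA and TYR. SOX10, a factor of the lineage, stood at 54.9 and 54.3 FPKM in Res and 91.8 and 73.3 FPKM in Ctrl (log2 fold change -0.58 ± 0.17 SE, limma adjusted p = 0.228). MITF, the master factor of the lineage, stood at 9.64 FPKM in Res replicate 1 and 31.8 FPKM in Res replicate 2. In Ctrl, MITF stood at 35.3 and 37.4 FPKM (limma adjusted p = 0.403). Of 5 epithelial markers 3 had values, the keratins KRT8, KRT18 and KRT19, which summed to 9.39 and 17.7 FPKM in Res and 3.12 and 3.91 FPKM in Ctrl. Of 6 fibroblast markers 3 had values, summing to 9.59 and 7.34 FPKM in Res and 5.20 and 6.01 FPKM in Ctrl. The 4 endothelial markers had no value. LCP1, the leukocyte marker with a value of 5 listed, stood at 6.0 and 5.72 FPKM in Res and 11.6 and 11.7 FPKM in Ctrl. The part of these differences in the levels of the feedback genes was not tested.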

How the data were processed

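RNA was sequenced from 2 resistant and 2 parental libraries of 92.1 cells. The authors deposited FPKM values, per the file headers, with 1 value for each gene in each library. The build was hg38, per the submitters' processing notes, but 11551 of the 11650 identifiers carry a suffix that GENCODE uses for annotation lifted to the older build. Which annotation gave the FPKM was not settled. Positions are those of GENCODE release 29 on GRCh38, looked up by gene name. Not given in the sources used here are the aligner, the FPKM program and the annotation release. Per the labels' protocols the libraries were stranded by a dUTP method. Genes whose larger group mean was under 0.501 FPKM had no value. The sum of FPKM ranged from 292736 to 293481 in Res and from 282602 to 283387 in Ctrl. Depth is unknown, so no counting interval is given.

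Identifiers were matched without version or suffix to current symbols (11575 of 11650). Values were transformed as log2(FPKM + 1), and genes whose mean over all 4 libraries reached 1 FPKM were compared, Res minus Ctrl, by a two-sided test in limma 3.58.1 (R 4.3.3) that used a variance trend and was adjusted by Benjamini-Hochberg. The fit was tested on simulated data with the same spread in both groups, drawn from its own variance model. That test thus does not cover the larger spread seen in Res. Python 3.11.15 was used for tables and figures.

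The members and lists were chosen with earlier results of these data known. All 10 members are named. From each other list the 2 highest and 2 lowest tested genes by log2 fold change are named, as is any gene past the threshold, of which there was none. Alternatives changed the pseudocount, filter, scaling, variance model or pairing, or left out 1 library. Same-numbered libraries did not deviate together (correlation of deviations across genes -0.071), and the labels do not say that a number marks a shared culture.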

Additional observations from a re-analysis of the deposited data

How the results depend on the processing

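No member passed the threshold over all genes under any of the 13 alternatives, and 6 of the 10 members (DUSP4, DUSP6, SPRY1, SPRY2, SPRY4 and PHLDA1) kept their direction in each alternative in which they were tested. Directions near 0 turned: DUSP5 had a log2 fold change of -0.04 and SPRED1 of -0.03 after rescaling to a common sum. With 1 library left out, DUSP5 ranged from -0.12 to 0.13, DUSP7 from -0.32 to 0.04, SPRED1 from -0.19 to 0.23, SPRED2 from -0.39 to 0.12 and GRB2 from -1.42 to 0.03, and a lone library was assumed to vary like the other group. The median of the members ranged from -0.28 to -0.03 when 1 library was left out. Of all genes, limma called 5 higher and 1 lower. It called 3 higher with a pseudocount of 0.1, with median-of-ratios scaling, with quantile normalization or with library weights, and 3 lower after rescaling to a common sum. With 1 library left out it called from 0 to 19 higher and from 0 to 13 lower. Without Res replicate 2 it called 0 of either (1031 higher and 1164 lower at an unadjusted p under 0.05), and without Res replicate 1 it called 0 higher. Where results moved, the cause was not tested.

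Members at an unadjusted limma p under 0.05 numbered 3 as reported, 4 with median-of-ratios scaling or quantile normalization, which add SPRY2, and 2 at a minimum mean of 5 FPKM, which leaves 7 members. PHLDA1 was among them in every alternative. With 1 library left out the share of all genes under that p varied widely: 6.81% without Ctrl replicate 1 (DUSP6 and PHLDA1), 7.74% without Ctrl replicate 2 (PHLDA1 and SPRY1), 35.4% without Res replicate 1 (DUSP6, PHLDA1 and SPRY4) and 21.4% without Res replicate 2 (DUSP6, PHLDA1 and SPRY2). With library weights SPRY1 dropped out and SPRY2 came in. The median of all genes was 0.01 after median-of-ratios scaling and -0.14 after rescaling to a common sum, beside -0.08 as deposited. With the replicate number as a block, all 10 members stayed short of the threshold (lowest adjusted p = 0.181), the median was -0.14 and 3 members had an unadjusted p under 0.05. CCN1 passed without Ctrl replicate 1 (limma adjusted p = 0.0212) and without Ctrl replicate 2 (0.0382).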

Other observations

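The tested genes closest in pattern to the 2 members with the largest differences were found by Euclidean distance between log2(FPKM + 1) profiles over the 4 libraries, each centred on its own mean. With only 4 libraries many genes lie close, so the values are descriptive. Nearest to DUSP6 were PLEKHA4 (distance 0.130), the oxidising enzyme gene CYP1B1 (0.153) and the ubiquitin-conjugating enzyme gene UBE2A (0.160). PLEKHA4 stood at 16.1 and 23.3 FPKM in Res, against 9.70 and 8.64 FPKM in Ctrl, and so shared the higher value of Res replicate 2. The much lower CYP1B1 stood at 2.515 and 3.979 FPKM in Res, against 1.112 and 0.9267 FPKM in Ctrl. Nearest to PHLDA1 were the inositol phosphate kinase gene IP6K3 (distance 0.026), the aldolase gene ALDOC (0.040) and GNAL (0.060), which encodes a stimulatory G protein alpha subunit. ALDOC stood at 7.02 and 6.67 FPKM in Res, against 14.2 and 13.5 FPKM in Ctrl. IP6K3 stood at 2.31 and 2.01 FPKM in Res, against 5.03 and 4.95 FPKM in Ctrl. GNAL stood at 0.887 and 0.723 FPKM in Res, against 2.64 and 2.39 FPKM in Ctrl, and so passed the filter through its Ctrl level. Because this scale understates the changes of low genes, CYP1B1, IP6K3 and GNAL lay near in pattern with larger changes in FPKM ratio.

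FRS2, the adaptor through which fibroblast growth factor receptors reach GRB2, was looked at after its values were seen. It stood at 0.626 and 2.80 FPKM in Res, against 3.05 and 0.576 FPKM in Ctrl, with 1 low and 1 high library in each group.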
